A study of Mus musculus with 2 samples.

Results

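The miR-379/410 cluster is the distal block of microRNAs in the imprinted Dlk1-Dio3 region of the mouse genome, and its content was compared between day 10 and day 0 of embryoid body formation. Members were taken by name: every probe whose reporter name, without arm suffix, stood in a list of the hairpins from miR-379 to miR-410, with miR-3072 beyond them. This gave 75 of the 1265 mature microRNA probes on the array, from 38 hairpin names, 37 of them with a probe for each arm and miR-453 with 1 probe. One sample was from embryoid bodies at day 10 of differentiation and the other from day 0, both from the mouse embryonic stem cell line ES-D3 (ATCC CRL-1934, strain 129S2/SvPas). Both cultures were grown with 15% fetal bovine serum and moved to ultra-low attachment dishes, per the labels. Total RNA of each day was labelled with Cy5 and hybridised to 1 array, so there was no replicate of either day, no test was possible, and the SD given beside a microRNA is technical, over the 3 spots of its probe.

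The Dlk1-Dio3 region carries protein-coding genes that are expressed from the paternal chromosome and long noncoding RNAs, snoRNAs and microRNAs that are expressed from the maternal one. The distal microRNAs are processed from long maternal transcripts that include Mirg, and one control region acts over the whole domain. The cluster is known for its expression in brain and placenta, for induction by the factor Mef2 in active rat neurons, and for being silenced in some mouse induced pluripotent stem cell lines of poor developmental capacity. Each hairpin gives a 5p and a 3p strand, and the seed, bases 2 to 8 of the mature strand, is the main determinant of the targets.

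In RefSeq (GRCm38.p6), 36 of the hairpins were listed, all on the plus strand of chromosome 12 between positions 109709060 and 109747960, a span of 38.9 kb. Mir410 ends at 109743795, and the end of the span is that of Mir3072, which starts at 109747878. Of the 75 mature sequences, 71 were listed and all 71 were identical to the target sequence of their probe. Of these 71, 19 lie within the annotated noncoding gene Mirg (chr12:109734981-109749458) and 52 lie before it. miR-376c-3p, miR-485-5p, miR-487b-3p and miR-539-3p were not in the table used. A pair of precursors shows the layout, with the measured arms in capitals and the loop and flanks in lower case. They were chosen because Mir154 (chr12:109738433-109738498) holds the highest difference of the cluster on its 3p arm and Mir667 (chr12:109720006-109720097) the lowest on its 5p arm.
Mir154: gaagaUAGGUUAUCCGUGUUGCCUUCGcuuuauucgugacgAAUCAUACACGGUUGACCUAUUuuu
Mir667: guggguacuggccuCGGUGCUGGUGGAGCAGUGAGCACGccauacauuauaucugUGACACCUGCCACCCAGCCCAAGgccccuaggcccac

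The members that were at least 2-fold higher on day 10 are shown next, 5′ to 3′, with the seed in capitals. miR-376c-3p was also at least 2-fold higher, but is not shown because it had no RefSeq sequence. miR-379-3p and miR-411-3p have the same seed, AUGUAAC, and their sequences differ by 2 edits. miR-495-3p and miR-543-3p differ by 4 edits, as do miR-154-3p and miR-369-3p, but neither of these pairs has the same seed. Signal of close relatives may not be separate on a hybridisation array.
miR-379-3p: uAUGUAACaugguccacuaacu
miR-411-3p: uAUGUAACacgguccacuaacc
miR-154-3p: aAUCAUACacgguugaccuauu
miR-369-3p: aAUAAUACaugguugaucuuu
miR-495-3p: aAACAAACauggugcacuucuu
miR-543-3p: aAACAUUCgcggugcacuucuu
miR-494-3p: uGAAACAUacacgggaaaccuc
miR-376b-3p: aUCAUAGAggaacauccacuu
miR-409-3p: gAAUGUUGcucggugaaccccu
miR-379-5p: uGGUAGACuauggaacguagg
miR-541-5p: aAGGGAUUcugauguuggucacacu

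The members with the lowest differences are shown in the same way. Their seeds are shared with no other member.
miR-667-5p: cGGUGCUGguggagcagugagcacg
miR-667-3p: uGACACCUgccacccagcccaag
miR-654-3p: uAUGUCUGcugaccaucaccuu
miR-666-3p: gGCUGCAGcgugaucgccugcu

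The deposited values are a linear median density per spot. Spots of the cluster lay between 37.9 and 1418 on day 10 and between 40.8 and 1303 on day 0, within overall ranges of 31.6 to 51494 for day 10 and 33.6 to 30763 for day 0. A probe was called detected where the median of its spots exceeded a threshold set from the 5 blank spots (their 95th percentile), 71.4 on day 10 and 70.0 on day 0. By this rule 34 cluster probes (45.3%) were detected on day 10 and 48 (64.0%) on day 0, against 37.6% and 58.3% of all 1265 probes. All 34 were among the 48, so 14 members were detected on day 0 alone and none on day 10 alone. The day 10 array was dimmer as a whole. Detection on either array was met by 739 probes, of which 64 (8.66%) were brighter on day 10. The median log2 ratio, day 10 over day 0, was -0.24 for the 19 spike-in probes (SD between probes 0.17) and 0.21 for 5 probes of 5S rRNA (SD 0.20).

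Differences below are log2 values, day 10 minus day 0, after background correction with an offset of 50 and quantile normalization. They are relative to the bulk of microRNAs on the arrays, and the offset makes the differences of dim probes too small. On this scale the cluster lay above the bulk. Of 48 detected members, 12 (25%) were at least 2-fold higher on day 10, against 6.77% of all 739 detected probes, and 1 was at least 2-fold lower, against 10.4%. No member reached 4-fold in either direction on this scale, and 35 lay within 2-fold. Some members did reach it under other settings. miR-667-5p was past 4-fold lower in several, and miR-667-3p when scaled to 5S rRNA (-2.12). With blank spots subtracted, members past 4-fold higher included miR-409-3p (2.82), miR-154-3p (2.58), miR-323-3p (2.38), miR-487b-3p (2.26), miR-379-3p (2.07) and miR-369-3p (2.05). A total of 40 members (83.3%) were above 0 and 8 below (4 were above 0 when 5S rRNA was used to scale), where 51.3% of all detected probes were above 0. The median difference was 0.45 for the members and 0.024 for all detected probes, with member quartiles of 0.064 and 0.89. Among the 14 members detected on day 0 alone, 1 was at least 2-fold lower, where the share of such probes over the array was 6.08%. Of these 14, 8 were above 0, against 28.5% of such probes over the array. None of the 14 was brighter on day 10 in deposited signal, and no such probe over the array was. Among members detected on both arrays, 32 of 34 were above 0, against 63.8% of all probes so detected. In bulk RNA, fewer cells of a type and less RNA per cell cannot be told apart.

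A place above the bulk does not mean a higher absolute signal. In deposited signal, 14 of the 48 members were brighter on day 10 and 34 dimmer, and their median log2 ratio was -0.29, against -0.77 for all detected probes. The cluster median changed sign with the scaling between arrays. It was -0.19 without normalization and -0.019 when the spike-ins were used to scale, while the median of all detected probes was -0.63 and -0.46 under the same scalings. When 5S rRNA was used to scale, the members' median was -0.40, and the median of all detected probes was -0.84. Relative to all detected probes, the members' median was 0.43 after quantile normalization and 0.44 under each of these 3 scalings, which differ from each other by a constant.

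**Figure D1:**
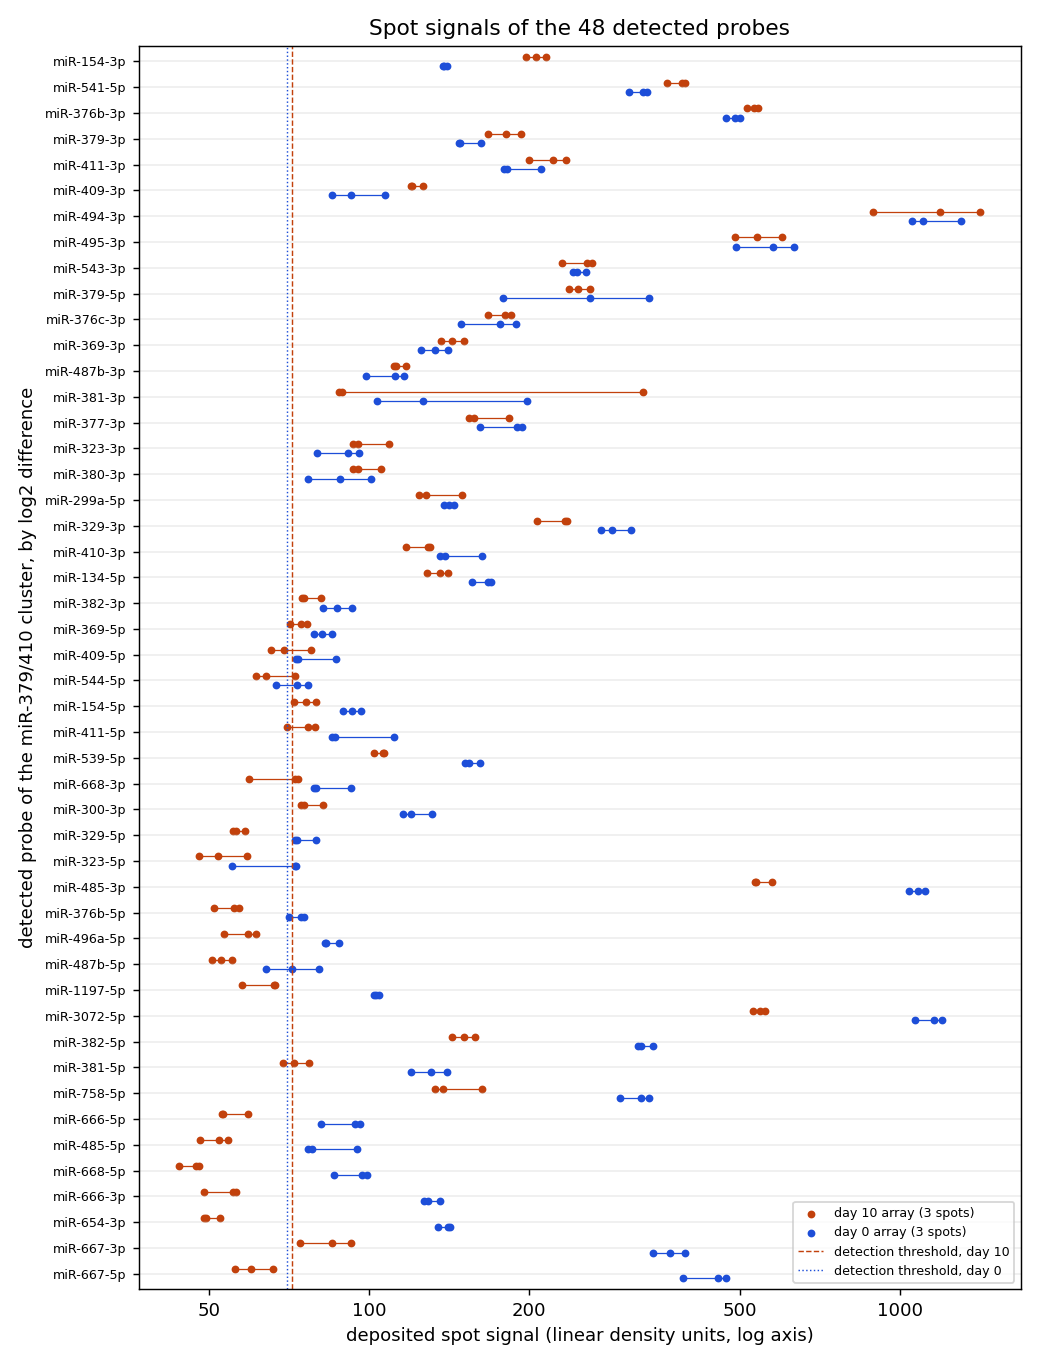
Deposited signal of each of the 3 spots (x axis, linear density units on a log axis) for the 48 detected cluster probes, ordered by normalized log2 difference from highest (top) to lowest, with day 10 drawn above day 0 in each row and the detection thresholds of 71.4 (day 10) and 70.0 (day 0) as vertical lines. The day 10 spots of 5 probes lie wholly above their day 0 spots and those of 27 probes wholly below, while 16 probes overlap.

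In 5 members every day 10 spot was brighter than every day 0 spot, and in 27 every day 10 spot was dimmer. Over all detected probes these shares were 4.6% and 83.9%. The 5 were miR-154-3p, miR-541-5p, miR-376b-3p, miR-379-3p and miR-409-3p, and they are therefore higher in the deposited signal without any scaling.

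miR-154-3p, which has been described in human lung fibroblasts, had the highest difference of the cluster. Its spots gave 197, 206.3 and 215.04 on day 10, against 137.9, 138.3 and 140.0 on day 0. The spots did not overlap, and the normalized difference was 1.44 (SD 0.054), a 2.71-fold higher level. The 5p strand of the same hairpin, miR-154-5p, gave 72.2, 76.2 and 79.5 on day 10 and 89.4, 92.8 and 96.3 on day 0, dimmer in every spot, with a difference of 0.42 (SD 0.09).

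miR-379-3p and miR-411-3p, with their common seed, had nearly equal differences. miR-379-3p gave 168, 181 and 193 on day 10 and 147, 148 and 163 on day 0, a difference of 1.16 (SD 0.047, 2.24-fold). miR-411-3p gave 200.1, 221.9 and 235 on day 10 and 179.6, 182 and 211 on day 0, a difference of 1.15 (SD 0.064, 2.21-fold). The spots of miR-379-3p were higher throughout on day 10, whereas those of miR-411-3p overlapped between the days. The other strand of Mir379, miR-379-5p, is known from mouse liver, where it acts on lipid metabolism. It gave 238, 248 and 261 on day 10 and 179, 261 and 336.9 on day 0, and the wide day 0 spots left its difference of 1.01 with an SD of 0.33. Its seed, GGUAGAC, is also that of miR-1193-5p, which was detected on neither day. miR-411-5p did not reach 2-fold, with 69.9, 76.8 and 79.1 on day 10, 85.2, 86.3 and 112 on day 0 and a difference of 0.39 (SD 0.14).

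The miR-376 hairpins are known as sites of adenosine-to-inosine editing in brain. miR-376b-3p gave 515, 530.4 and 539.6 on day 10, against 471, 489 and 498.9 on day 0, with no overlap of spots and a difference of 1.19 (SD 0.048, 2.28-fold). miR-376c-3p gave 167, 180.3 and 185 on day 10 and 149, 177 and 189 on day 0, which overlapped, and its difference was 1.01 (SD 0.10). miR-376a-3p, 3 edits from miR-376b-3p, was detected on neither day. The 5p strand miR-376b-5p was detected on day 0 alone, with a difference of 0.098.

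miR-409-3p, known to repress angiogenin in human cells, gave 120.2, 120.3 and 126.4 on day 10 and 85.1, 92.5 and 107 on day 0, higher on day 10 in every spot, and differed by 1.09 (SD 0.074, 2.13-fold). miR-541-5p was the other 5p strand past 2-fold. Its spots gave 364, 388 and 394 on day 10, against 309, 328 and 334 on day 0, with no overlap and a normalized difference of 1.33 (SD 0.026, 2.51-fold). The target of its probe lies at chr12:109742422-109742446, within Mirg.

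The remaining members past 2-fold had overlapping spots on the arrays, and the threshold separates them poorly from those just below it. miR-494-3p gave 891, 1189 and 1418 on day 10 and 1055, 1104 and 1303 on day 0, a difference of 1.09 with an SD of 0.43. miR-495-3p, a repressor of Bdnf, gave 488, 537 and 600.4 on day 10 and 491, 576 and 631 on day 0, and differed by 1.03 (SD 0.18). The sign of these 2 depended on the scaling: without normalization their values were -0.00032 for miR-494-3p and -0.049 for miR-495-3p. miR-543-3p and miR-369-3p restrain N-cadherin in mouse neural progenitors. miR-543-3p gave 231, 257 and 262 on day 10 and 242, 246 and 256 on day 0 (difference 1.03, SD 0.13). miR-369-3p gave 136.4, 143.4 and 151 on day 10 and 125.5, 133.2 and 141 on day 0 (difference 1.001, SD 0.13), just inside the threshold.

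In 6 of the 12 members past 2-fold, the difference lay within 1 spot SD of the threshold of 1. Scaled to 5S rRNA, 8 of the 12 turned negative, and miR-154-3p, miR-541-5p, miR-379-3p and miR-409-3p kept a positive sign in all 14 alternative settings that change the values. Just outside the threshold were miR-487b-3p with 0.86 (SD 0.07), miR-381-3p with 0.84, miR-377-3p with 0.84 (SD 0.12) and miR-323-3p with 0.83 (SD 0.11). In miR-381-3p 1 day 10 spot stood apart: it gave 87.8, 88.8 and 328.6 on day 10 and 103, 126.2 and 198 on day 0, with an SD of 0.74. miR-300-3p, whose sequence is 3 edits away, was dimmer on day 10 in every spot, with 74.5, 75.3 and 81.8 against 116, 119.8 and 131 on day 0, and differed by 0.18.

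miR-134-5p, known to limit dendritic spine size in rat neurons through Limk1 and to target Nanog and Sox2 in mouse embryonic stem cells, lay within 2-fold. Its spots gave 128.7, 136.1 and 141 on day 10 and 156, 167 and 169.7 on day 0. They were dimmer throughout on day 10, but less so than the bulk, and the normalized difference was 0.65 (SD 0.028). miR-329-3p gave 207, 234 and 236 on day 10 and 273, 286 and 311 on day 0, with a difference of 0.71 (SD 0.16). miR-410-3p, the last hairpin of the cluster's name, gave 118, 129.1 and 130.1 on day 10 and 135.8, 139 and 163 on day 0, with a difference of 0.68 (SD 0.10).

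A group of members was much dimmer on day 10 in deposited signal and close to 0 after normalization. miR-485-3p gave 534, 535 and 575 on day 10, against 1039.6, 1080.5 and 1114 on day 0, and differed by 0.12 (SD 0.081). miR-3072-5p gave 529, 546 and 556 on day 10, against 1067, 1158 and 1198 on day 0, and differed by 0.051 (SD 0.044). The same held for miR-382-5p, with 143.1, 151 and 158 on day 10, 321, 326 and 343 on day 0 and a difference of 0.027, and for miR-758-5p, with a difference of -0.0033. The spots of these members did not overlap between days. Their log2 ratios of deposited signal were -0.98 for miR-485-3p, -1.07 for miR-3072-5p, -1.13 for miR-382-5p and -1.14 for miR-758-5p, below the median of -0.77 over all detected probes.

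The hairpin Mir667 stood at the low end with both strands. miR-667-5p gave 55.8, 59.8 and 66.0 on day 10, below the detection threshold, against 389.6, 454 and 470.2 on day 0. On the quantile-normalized scale it was the only member at least 2-fold lower, with a normalized difference of -1.71 (SD 0.18). Since day 10 gives only a bound, it is reported as at least 2.88-fold lower on this scale. That bound is set against the higher of the day 10 level of miR-667-5p and the lowest detected level of that array. It did not hold in every alternative setting. In the 14 alternative settings miR-667-5p ran from -3.66 with blank spots subtracted to -1.38 with the 75th percentiles of jointly detected probes equalised. It was past 4-fold lower with an offset of 16 (-2.20), without normalization (-2.52) and when scaled to spike-ins (-2.35) or 5S rRNA (-2.74). miR-667-3p was detected on both days, with 74.2, 85.3 and 92.5 on day 10 against 343, 368 and 393 on day 0, and its difference of -0.99 (SD 0.12) lay just outside the threshold. It was past 2-fold lower in 10 of 14 alternative settings, which ran from -2.12 when scaled to 5S rRNA to -0.77 when the 75th percentiles of jointly detected probes were equalised. Both strands were below 0 in all 14 alternative settings. miR-654-3p was also lost from detection, with 48.8, 49.2 and 52.3 on day 10 against 135, 141 and 141.9 on day 0 (difference -0.66, SD 0.046), at least 1.11-fold lower. For miR-666-3p the spots gave 48.8, 55.4 and 56.2 on day 10 and 127.1, 129.0 and 135.96 on day 0 (difference -0.47, SD 0.18), at least 1.06-fold lower, and miR-668-5p differed by -0.39 with no bound above 1. The differences of miR-666-3p and miR-668-5p became positive, at 0.12 and 0.39, when the 75th percentiles of jointly detected probes were equalised, and miR-668-5p also with that of all probes, at 0.22. That of miR-654-3p ran from -1.50 with blank spots subtracted to -0.031 with the 75th percentiles of jointly detected probes equalised, so its bound did not hold in every setting.

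The 3p and 5p strands of the cluster differed in their values. On day 10, 22 of 37 3p probes (59.5%) and 12 of 37 5p probes (32.4%) were detected, against 39.8% of all 3p and 38.6% of all 5p probes on the array. On day 0 the cluster had 24 detected probes of each arm (64.9%), against 56.5% of all 3p and 61.2% of all 5p probes. The 24 detected 3p members had a median difference of 0.84, with 10 at least 2-fold higher and none 2-fold lower, where 11.2% of all detected 3p probes were higher and 8.27% lower. The 24 detected 5p members had a median of 0.12, with 2 higher and 1 lower, where 5.42% of all detected 5p probes were higher and 10.8% lower. The medians over all detected probes were 0.14 for 3p and 0.0026 for 5p strands. The median share of G and C bases was 45.5% in the detected 3p members and 50% in the detected 5p members, against 50% and 48% over the array. The part of base composition in the strand difference was not tested.

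Within a hairpin the comparison does not depend on a constant scaling between arrays. Both strands were detected for 15 hairpins, and in 14 of them the difference of the 3p strand was above that of the 5p strand, Mir666 being the exception. The 3p difference minus the 5p difference had a median of 0.70 and ran from -0.41 to 1.09. Over all 159 hairpins of the array with both strands detected, the 3p strand was above in 57.9% and the median was 0.16. In the ratio of deposited signals, with neither correction nor scaling, the 3p strand was above in 13 of the 15 member hairpins and 59.1% of the 159. Outside the cluster, it was above on the normalized scale in 78 hairpins (54.2%) and the median was 0.065. The widest gap of the cluster was that of Mir376b, with 1.19 for the 3p and 0.098 for the 5p strand. Mir369 had 1.001 for its 3p and 0.50 for its 5p strand, and Mir409 had 1.09 for its 3p and 0.48 for its 5p strand. In spots, miR-369-5p gave 70.9, 74.6 and 76.3 on day 10 and 78.6, 81.6 and 85.2 on day 0, and miR-409-5p 65.2, 69.2 and 77.8 on day 10 and 72.8, 73.5 and 86.5 on day 0. Both 5p strands were dimmer on day 10 relative to their own 3p strand, although not relative to the bulk. Among hairpins with neither strand past 2-fold, the gap was similar in Mir381 (3p 0.84, 5p 0.024), Mir487b (3p 0.86, 5p 0.066) and Mir323 (3p 0.83, 5p 0.13). It was smaller in Mir329 (3p 0.71, 5p 0.15) and Mir382 (3p 0.50, 5p 0.027). The strands had opposite signs in Mir485 (3p 0.12, 5p -0.11) and Mir668 (3p 0.35, 5p -0.39), and in Mir666 both were below 0 (3p -0.47, 5p -0.066). Of the 24 detected 5p members, 12 were detected on day 0 alone, against 2 of the 24 3p members, and the offset shrinks differences of such dim probes. In the 6 member hairpins with both strands detected on both arrays, the 3p strand was above in all 6, against 54.5% of the 77 such hairpins on the array, with a median gap of 0.63 and a range of 0.16 to 1.02.

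**Figure D2:**
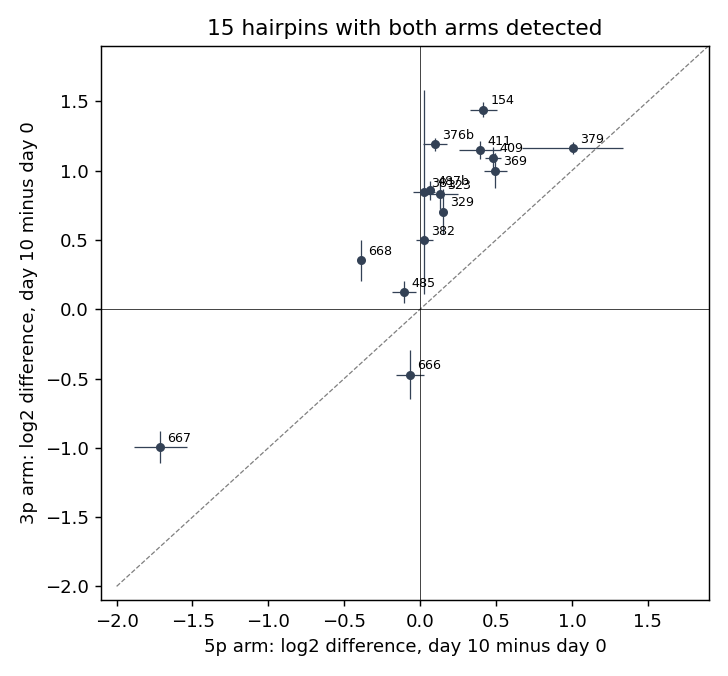
Normalized log2 difference, day 10 minus day 0, of the 5p strand (x axis) and the 3p strand (y axis) for the 15 hairpins with both strands detected, with bars of 1 SD over the 3 spots and a dashed line of equality. All hairpins but Mir666 lie above the line, and Mir667 is low on both axes.

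Position in the cluster did not order the differences. Over the 45 detected members with a RefSeq position, the Spearman rho between difference and distance from the start of Mir379 was 0.0034 and Pearson's r was 0.062, as a description across probes of the same 2 arrays. Of the 11 detected members within Mirg, 4 were at least 2-fold higher and all 11 were above 0 on the quantile-normalized scale, with a median of 0.68. Of the 34 detected members with a mature position before Mirg, 7 were higher, 1 was lower and 27 were above 0, with a median of 0.35. Over the array 6.77% of detected probes were higher, 10.4% were lower and 51.3% were above 0. All 7 members below 0 that have a position therefore lay before Mirg. The detected members miR-376c-3p (1.01), miR-487b-3p (0.86) and miR-485-5p (-0.11) had no mature position and are not in these counts, but their hairpins also lie before Mirg. The 2 stretches had the same direction of median, and their difference was not tested.

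**Figure D3:**
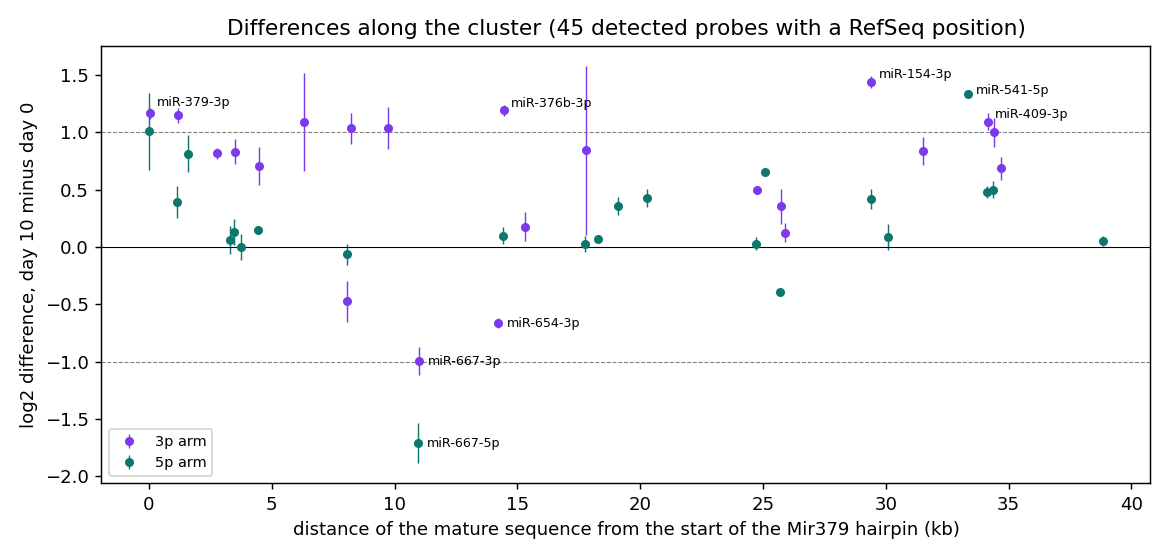
Normalized log2 difference, day 10 minus day 0 (y axis), against the distance from the start of the Mir379 hairpin in kb (x axis) for the 45 detected members with a RefSeq position, with bars of 1 SD over the 3 spots and dashed lines at the 2-fold threshold. Members past 2-fold on this quantile-normalized scale lie at both ends and in the middle of the 38.9 kb, and the low values of miR-667, miR-666 and miR-654 lie between 8 and 15 kb.

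The members past 2-fold were poor in G and C. Their GC share ran from 23.8% to 54.5% with a median of 41.0%, against a median of 50% for the 35 members within 2-fold and 68.0% for miR-667-5p. Of 28 detected members under 50% GC, 11 were higher and none lower, with a median difference of 0.83. Of the 20 at 50% or more, 1 was higher (miR-409-3p) and 1 lower, with a median of 0.062. Across the 48 detected members, Pearson's r between GC share and difference was -0.61 and Spearman's rho was -0.61, and r was -0.59 over the 34 detected on both days. Within each arm, r was -0.47 over the 24 detected 5p members and -0.63 over the 24 detected 3p members.

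The same direction held, with a smaller correlation, across the other 691 detected probes, with r of -0.18 and rho of -0.22. Over all detected probes, 13.7% of those under 50% GC were higher and 8.21% lower, against 1.22% higher and 12.2% lower at 50% or more. The relation in the members was also present in the ratio of deposited signals (r -0.58) and in the authors' processed values (r -0.61). All these probes come from the same 2 hybridisations, so base composition and biology cannot be told apart here.

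**Figure D4:**
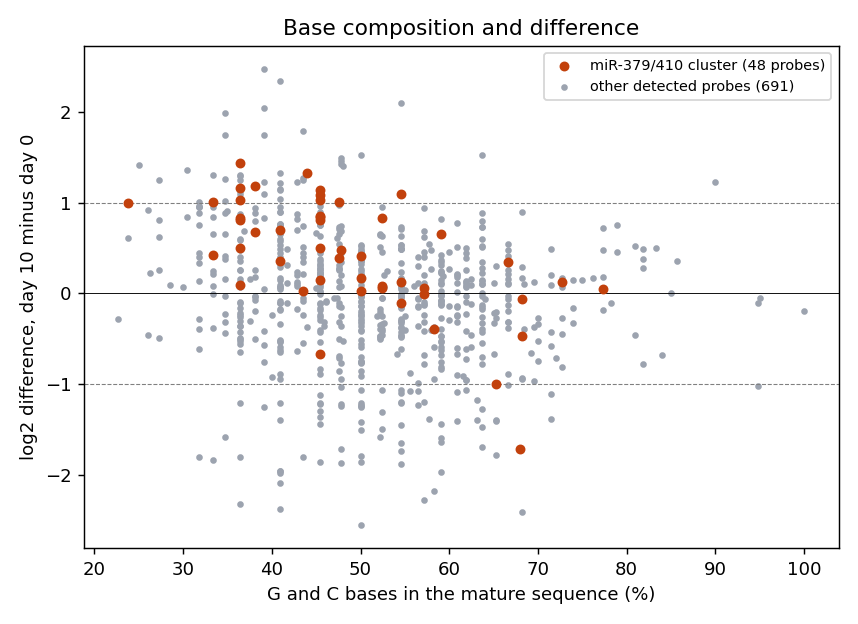
Normalized log2 difference, day 10 minus day 0 (y axis), against the GC share of the mature sequence in percent (x axis) for the 48 detected cluster probes (orange) and the other 691 detected probes (grey), with dashed lines at the 2-fold threshold. The cluster probes slope downward (r -0.61), and so do the others less steeply (r -0.18).

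Many 3p strands of the cluster carry the letters CACGG or CAUGG, searched in the mature RNA as printed and chosen after the sequences had been seen. Of 34 member 3p strands with a RefSeq sequence, 11 (32.4%) hold 1 of the 2. The share was 2.87% of all 453 3p strands outside the cluster, which were not limited to those in RefSeq. In 8 of the 11 the letters begin at base 8, where the seed ends, as in miR-154-3p, miR-379-3p and miR-411-3p above. Of the 9 that were detected, 6 were at least 2-fold higher, and their differences ran from 0.12 to 1.44 with a median of 1.03. The 13 detected 3p members with a RefSeq sequence and without the letters had a median of 0.71, with 3 higher. miR-376c-3p (1.01, past 2-fold) and miR-487b-3p (0.86) were also detected, but had no RefSeq sequence and are in neither count. Outside the cluster, the 5 detected 3p strands with these letters had a median of 0.024, with 1 higher. Among 5p strands the letters GGUUG were found in 9 of 36 members with a RefSeq sequence (25%). They were found in 3.82% of all 445 5p strands outside, again not limited to those in RefSeq. None of the 5 detected 5p members with them was past 2-fold, and their median was 0.058.

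The proximal microRNAs of the same imprinted domain, around Rtl1 antisense and Rian, were described beside the distal cluster from a list of names. Of their 37 probes, 16 were detected on day 10 and 21 on day 0. None was at least 2-fold higher, against 6.77% of all detected probes, and 2 of 21 (9.52%) were lower, near the 10.4% over the array. Their median difference was 0.17, and 14 of the 21 (66.7%) were above 0, against 51.3%. The highest was miR-337-3p, with 133.4, 149 and 159 on day 10, 142.3, 158 and 158 on day 0 and a difference of 0.87 (SD 0.19), followed by miR-127-3p, an antisense regulator of Rtl1, at 0.82 (SD 0.19). The lowest was miR-665-5p, with 141.8, 151.9 and 169 on day 10, 871, 956 and 968 on day 0 and a difference of -1.38 (SD 0.085), followed by miR-493-3p at -1.07 (SD 0.23). The brightest probe of the proximal list was miR-341-5p, with a mean deposited signal of 46965.5 on day 10 and 29349.4 on day 0 and a difference of 0.17 (chosen after its values were seen). The difference between the proximal and distal microRNAs was not tested.

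Markers of cell types also differed between the arrays. On the normalized scale the pluripotency list was higher on day 10, with a median difference of 0.38. The fibroblast and mesenchyme list was lower, with a median of -1.21, against 0.024 for all detected probes. Days are given as labelled, and how far the cultures had differentiated was not tested. In the pluripotency list, miR-290 to miR-295 with miR-302 and miR-367, 17 of 24 probes were detected on each day, 4 of 17 were at least 2-fold higher on day 10 (6.77% of all detected probes were), none was lower (10.4%), 16 lay above 0 (51.3%), and the summed deposited signal was 67479 on day 10 and 82915 on day 0. All mature probes together summed to 501264 on day 10 and 808845 on day 0. In the fibroblast and mesenchyme list, 10 of 23 probes were detected on day 10 and 17 on day 0, 9 of 17 lay at least 2-fold lower (none was higher), and the summed signal was 3197 on day 10 and 15507 on day 0. The neural list had 8 of 20 probes detected on day 10 and 10 on day 0, with 1 higher and 1 lower and sums of 2137 on day 10 and 2863 on day 0. Muscle and heart probes were detected for 3 of 13 on each day, with 1 lower and sums of 768 on day 10 and 1513 on day 0. Endoderm and liver probes (2 of 9 on day 10, 4 on day 0) had sums of 6451 on day 10 and 7203 on day 0, and blood and endothelium probes (2 of 11 on day 10, 5 on day 0) sums of 752 on day 10 and 1041 on day 0, with none past 2-fold in either list. The cluster itself summed to 9561 on day 10 and 12451 on day 0. These sums take every probe of a list, detected or not, with no background removed, so part of each is signal near the blank level. The 34 cluster probes detected on both arrays summed to 7463 on day 10 and 9305 on day 0. The part of these cell types in the cluster's values was not tested.

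The other 27 members, 13 of each arm and miR-453, were detected on neither array. Their median signals ran from 38.5 to 61.7 on day 10 and from 43.9 to 69.1 on day 0, and no difference is given for them. They include both strands of miR-412, miR-679, miR-376a and miR-1193. A spot near the blank level limits what can be seen, so absence of these strands is not shown.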

How the data were processed

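Total RNA of 1 day 10 and 1 day 0 culture was hybridised with Cy5 to arrays of miRBase release 19 probes. The authors deposited spot intensity, a linear median density per the file headers; no background step or normalization is stated, and each array has 3968 spots. A table of the authors' processed intensity per probe, of unstated scaling, was tried as an alternative after adding 50 and taking log2. Its columns had medians of 22.0 on day 10 and 25.4 on day 0, and Spearman correlations with the scanner signal of 0.996 on day 10 and 0.998 on day 0.

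Intensities were corrected with normexp (offset 50, all spots) in limma 3.58.1 under R 4.3.3, log2 transformed and quantile normalized over mature probes, and the 3 spots averaged. Summaries used Python 3.11.15. The procedure was run on simulated arrays with changes well past 2-fold in brighter probes alone. That run does not cover differences near 2-fold or dim members. Members, lists and the 2-fold rule were chosen with earlier results of these data known. Named were members past 2-fold, the next 4 in each direction, their other strands where both were detected, and seed families with a member past 2-fold. miR-134-5p, miR-329-3p, miR-410-3p, miR-300-3p, miR-485-3p, miR-485-5p, miR-3072-5p, miR-382-5p and miR-758-5p were chosen after their values were seen. With 1 array per day no p-value is given, and the number of arrays limits the precision. Other background corrections, scalings, spot summaries and detection thresholds were tried as alternatives.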

Additional observations from a re-analysis of the deposited data

How the results depend on the processing

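The count of 12 members at least 2-fold higher became 18 with an offset of 16, 8 with medians over spots, 13, 8 and 9 in each spot alone, 24 with the blank spots subtracted, 20 with the 75th percentile of probes detected on both arrays, 6 with cyclic loess, 7 in the authors' processed values, and 0 without normalization, when scaled to spike-ins or to 5S rRNA, and at 4-fold. The single lower member became 3 with an offset of 16 or scaled to spike-ins, 2 without background correction, with cyclic loess, in the authors' values and in the first or second spots alone, 4 with blank spots subtracted, 7 without normalization, 8 when scaled to 5S rRNA, and 0 at 4-fold or among probes detected on both arrays. Of all 739 detected probes, 18.4% were higher and 19.4% lower with blank spots subtracted, 14.1% and 7.58% with the 75th percentile of jointly detected probes, 4.60% and 11.6% with cyclic loess, 5.14% and 13.0% for the authors' values, 10.96% and 14.2% with an offset of 16, 0.812% and 31.4% without normalization, 0.812% and 25.3% when scaled to spike-ins, and 0.406% and 41.1% when scaled to 5S rRNA. The median difference of 0.45 (SD 0.044 over spot positions) became -0.19 without normalization, -0.019 when scaled to spike-ins and -0.40 when scaled to 5S rRNA, 0.71 with an offset of 16, 0.55 without background correction, 1.18 with blank spots subtracted, 0.78 and 0.95 with the 75th percentile of all or of jointly detected probes, 0.41 in the authors' values, 0.50 in the second spots, 0.81 among probes detected on both arrays, 0.16 with no detection filter and 0.84 with the threshold doubled. Relative to all detected probes (0.43) it stayed above 0 throughout, at 0.67 with an offset of 16, 0.52 without background correction, 1.18 with blank spots subtracted, 0.47 in the authors' values and in the second spots, 0.48 in the third, 0.59 among probes detected on both arrays, 0.14 with no detection filter and 0.83 with the threshold doubled. Doubling the threshold left 16 members detected on day 10 and 21 on day 0. Scaled to 5S rRNA, miR-369-3p (-0.085), miR-376c-3p (-0.14), miR-379-5p (-0.21), miR-543-3p (-0.19), miR-495-3p (-0.26), miR-494-3p (-0.21), miR-411-3p (-0.0060) and miR-376b-3p (-0.089) turned negative, as did miR-495-3p (-0.049) and miR-494-3p (-0.00032) without normalization. Detection filters do not change the value of a member. No paired analysis was possible because both days lack replicate arrays, and the causes of these shifts were not tested. Signal over background limits the 14 members that day 10 did not detect.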
